A study of Mus musculus with 17 samples.

Results

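Metalloproteinases are zinc-dependent enzymes that cut proteins outside the cell or at its surface. The genes described here are the matrix metalloproteinases (Mmp), their tissue inhibitors (Timp), the membrane-anchored Adam proteins and the secreted Adamts enzymes. Members were all genes whose symbol is Mmp, Timp, Adam or Adamts followed by a number and at most 1 letter, and which had a probe set assigned to a single gene. There were 54 members among 12393 measured genes, with 18 Mmp, 4 Timp, 25 Adam and 7 Adamts genes, and each was represented by its probe set with the highest mean over the 17 arrays. Values are log2 units throughout, so a difference of 1 is a doubling, and they were compared between tumours for the same gene, not between genes.

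The tumours were mammary tumours of FVB mice carrying MMTV-Myc T58A, a mutant Myc oncogene under a promoter active in mammary epithelium, and all were labelled low expressing. By histology label there were 6 EMT tumours (epithelial to mesenchymal transition), 9 Squamous tumours, 1 Papillary and 1 Microacinar tumour, each measured on 1 Affymetrix array. No normal mammary gland was among the samples, and the labels give neither the age of the mice nor whether each tumour came from its own animal. The EMT and Squamous tumours form the only comparison with replicates.

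Matrix metalloproteinases are secreted or membrane-bound as inactive precursors. They are classed by substrate into collagenases, gelatinases, stromelysins, the matrilysin Mmp7, the elastase Mmp12 and the membrane types, and Timp proteins bind and block their active sites. In mammary tumours they are known to be made by fibroblasts, macrophages and neutrophils as well as by tumour cells. Several of their genes lie next to each other on mouse chromosome 9 and are known targets of the transcription factor AP-1.

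Epithelial markers differed between EMT tumours. The mean of 10 epithelial genes, among them Cdh1, Epcam and the keratins, measured 11.62, 11.69, 12.05, 8.30, 6.76 and 7.72 in EMT tumours 1 to 6, against 10.86 to 11.93 in the Squamous tumours. Arrays had titles in 2 formats: 14 were numbered, and 3 had TM titles (EMT 5, EMT 6 and Squamous 9) and a wider spread of values (SD over probe sets 2.46 to 2.51, against 2.24 to 2.28 on numbered arrays). On TM arrays 17 members shared an exactly equal value between 2 or more of the 3 arrays. Fold changes below (EMT minus Squamous) come from limma with an additive effect of title format, with p adjusted over all genes, and their precision is limited by how few tumours there are. The 3′ minus 5′ difference of the beta-actin control probe sets, which is larger in less intact RNA, was 0.44 to 0.82 in EMT and 0.62 to 0.96 in Squamous tumours. For the Gapdh control probe sets the ranges were nearly the same, −0.03 to 0.39 in EMT and −0.02 to 0.38 in Squamous tumours. The part of RNA intactness in the results was not tested.

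The promoters of the chromosome 9 genes are shown first, because Mmp12, the member with the largest difference below, lies in this cluster. The AP-1 motif was searched as TGAGTCA on both strands in the 250 bases before each gene start in the RefSeq promoter table (GRCm38.p6), which held 35 promoters of 30 members. It was found in 8 of the 35 member promoters (22.9%) and in 4.46% of all 32851 promoters. The 8 genes were Mmp1a, Mmp1b, Mmp3, Mmp7, Mmp10, Mmp12, Mmp13 and Adam19, and all but Adam19 lie on chromosome 9. The promoters of Mmp13, Mmp3, Mmp10, Mmp7 and Mmp12, and for contrast that of Mmp14, which lies on chromosome 14 and holds no such motif in this window, are printed 5′ to 3′ with the AP-1 motif in capitals.
Mmp13: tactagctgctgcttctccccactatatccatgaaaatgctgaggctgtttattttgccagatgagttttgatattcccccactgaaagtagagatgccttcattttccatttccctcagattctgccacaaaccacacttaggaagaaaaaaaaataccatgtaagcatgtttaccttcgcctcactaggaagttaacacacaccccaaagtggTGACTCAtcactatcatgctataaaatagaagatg
Mmp3: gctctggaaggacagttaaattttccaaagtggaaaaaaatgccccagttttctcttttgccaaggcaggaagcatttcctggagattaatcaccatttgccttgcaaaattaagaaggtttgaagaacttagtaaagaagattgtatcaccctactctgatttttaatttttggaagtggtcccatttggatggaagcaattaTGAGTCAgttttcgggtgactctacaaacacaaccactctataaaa
Mmp10: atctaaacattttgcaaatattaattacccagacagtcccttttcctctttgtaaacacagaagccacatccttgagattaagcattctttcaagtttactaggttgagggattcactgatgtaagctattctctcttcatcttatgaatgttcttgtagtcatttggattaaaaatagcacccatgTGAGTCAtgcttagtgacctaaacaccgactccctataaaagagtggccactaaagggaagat
Mmp7: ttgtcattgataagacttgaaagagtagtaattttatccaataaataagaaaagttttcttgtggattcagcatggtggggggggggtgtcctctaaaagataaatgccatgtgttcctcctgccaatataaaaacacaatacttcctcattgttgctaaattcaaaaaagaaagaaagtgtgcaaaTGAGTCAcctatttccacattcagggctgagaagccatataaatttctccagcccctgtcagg
Mmp12: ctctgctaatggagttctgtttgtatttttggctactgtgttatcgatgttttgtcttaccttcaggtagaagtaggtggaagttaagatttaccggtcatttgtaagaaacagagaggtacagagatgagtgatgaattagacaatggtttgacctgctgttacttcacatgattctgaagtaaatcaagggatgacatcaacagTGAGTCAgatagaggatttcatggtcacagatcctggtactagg
Mmp14: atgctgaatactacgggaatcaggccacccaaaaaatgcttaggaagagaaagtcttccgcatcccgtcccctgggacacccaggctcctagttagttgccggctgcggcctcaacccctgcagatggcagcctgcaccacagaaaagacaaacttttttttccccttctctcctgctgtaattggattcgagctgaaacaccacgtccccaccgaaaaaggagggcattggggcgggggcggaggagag

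These windows lie at chr9:7272264-7272513 for Mmp13, chr9:7445572-7445821 for Mmp3, chr9:7502092-7502341 for Mmp10, chr9:7691840-7692089 for Mmp7, chr9:7347124-7347373 for Mmp12 and chr14:54431348-54431597 for Mmp14, all on the plus strand. The motif began 35 bases before the start of Mmp13, 46 bases before that of Mmp3, 63 bases before those of Mmp7 and Mmp10 and 44 bases before that of Mmp12. Mmp12 and Mmp7 each have 2 starts in the table, and the window before the other start (upstream for Mmp12, downstream for Mmp7) held no match. Mmp8, in the same cluster, had none either. The motif TATAAA, searched on both strands, was in 8 member promoters (22.9%) and in 12.4% of all promoters. A match describes the letters and does not show binding.

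**Figure D1:**
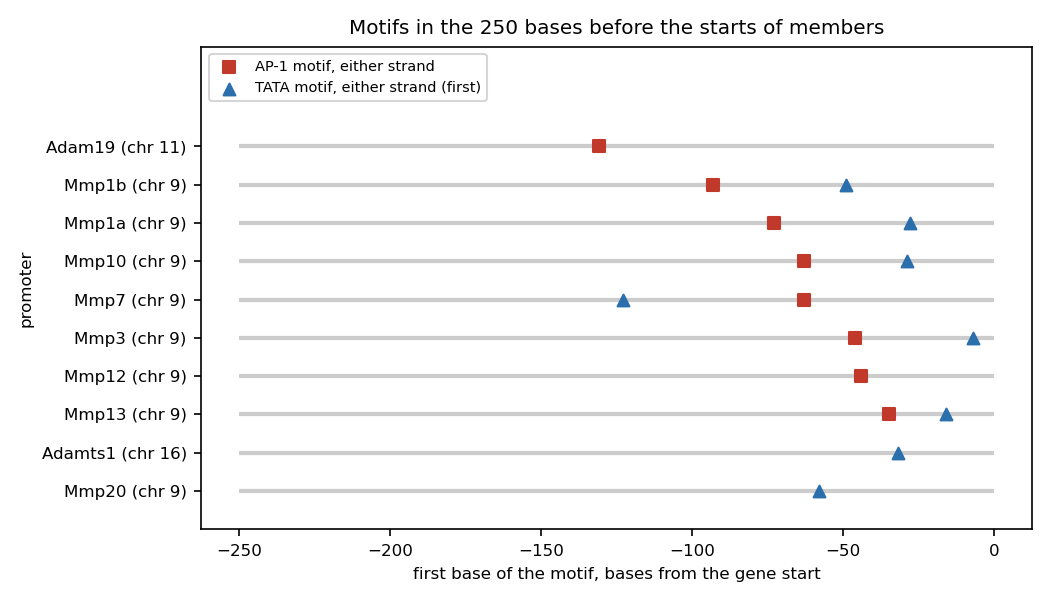
Positions of the AP-1 and TATA motifs in the 250 bases before the start, for the member promoters that hold either motif; x, bases from the gene start; y, gene and chromosome. The AP-1 motif of 7 chromosome 9 genes lies between positions −93 and −35.

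No member passed the test between EMT and Squamous tumours, at an adjusted p under 0.05, and neither did any of the 12393 genes (0% called). At an unadjusted p under 0.05 there were 3 members, against 14.3% of all genes. Adam10 lay higher in EMT tumours (1 member, against 8.08% of genes higher) and Mmp12 and Mmp8 lay lower (2 members, against 6.27% of genes lower). The median log2 fold change of the members was 0.04, beside 0.01 for all genes, with 34 members above 0 and 20 below. No member had EMT and Squamous values free of overlap, against 0.25% of all genes (0.153% with EMT tumours higher and 0.0968% with EMT tumours lower). The SD was higher among EMT than among Squamous tumours for 42 of the 54 members (77.8%, against 77.2% of all genes). There were 11 members with 3 or more EMT tumours above the highest Squamous tumour (20.4%, against 15.1% of all genes). The members with 3 or more below the lowest were Mmp12 and Adamts15 (2 of 54, against 11% of genes). Adamts15 was chosen after its values were seen. In EMT tumours 1 to 6, 2, 11, 3, 21, 15 and 19 of the 54 members lay above the highest Squamous tumour. The shares of all genes above it in the same tumours were 10.1%, 15.5%, 9.26%, 19.6%, 27.1% and 26.8%. Values of EMT 4, EMT 5 and EMT 6 above the Squamous range were thus common among all genes.

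**Figure D2:**
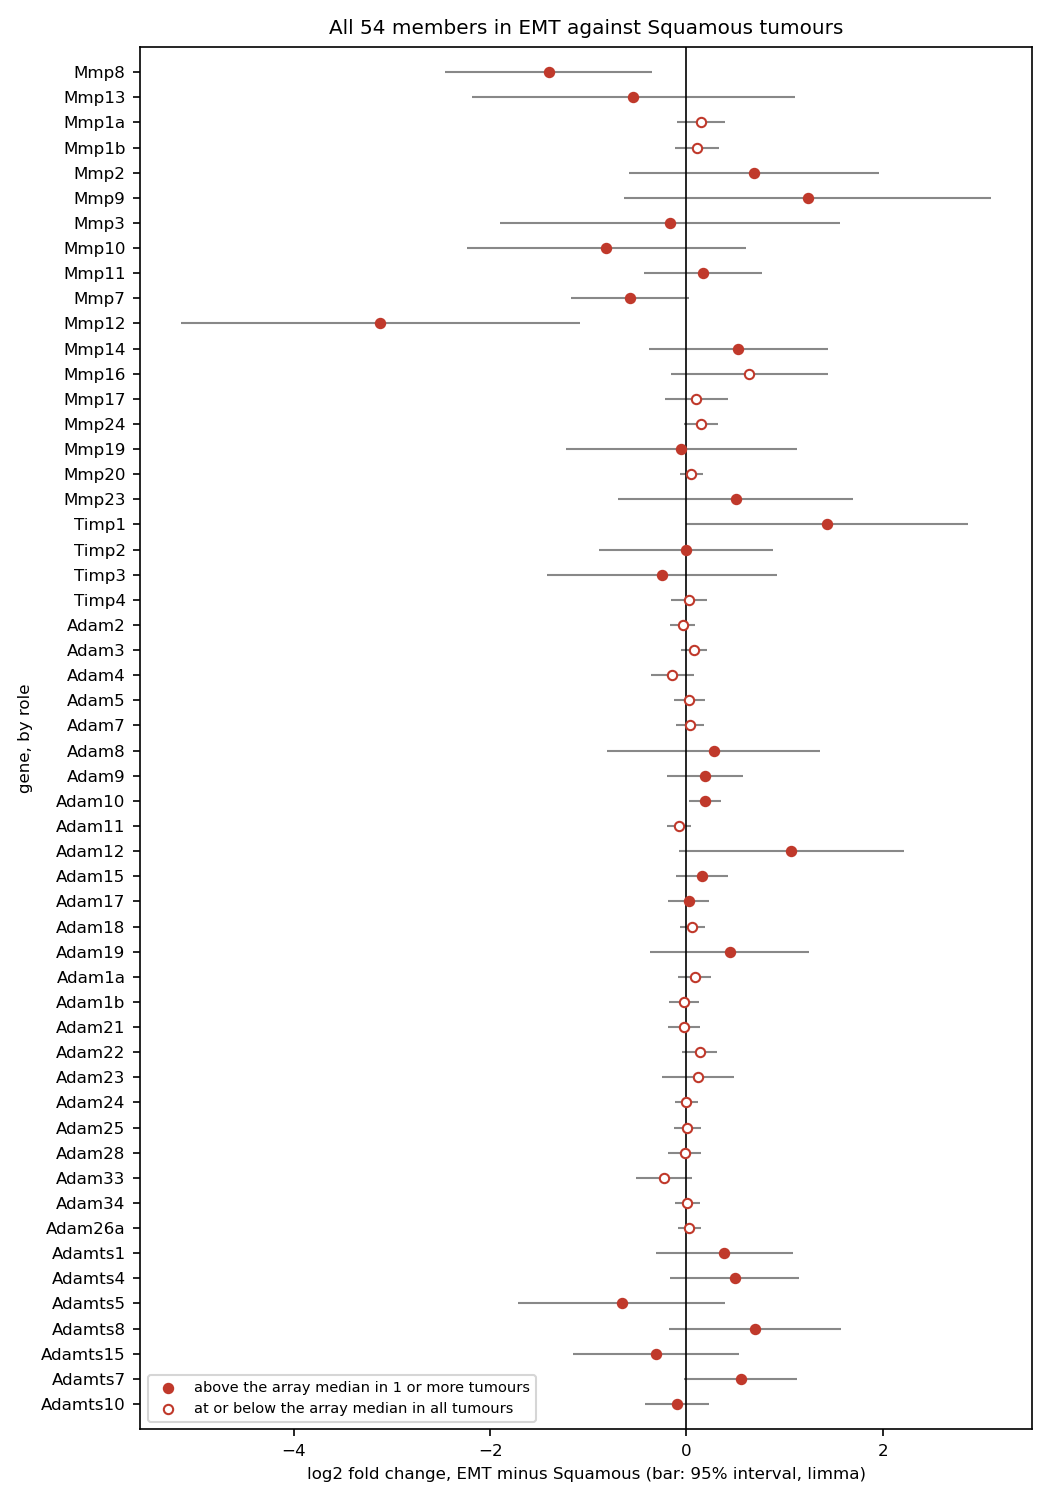
Log2 fold change (x) of each of the 54 members (y, by role) in EMT minus Squamous tumours, with the 95% interval of limma; open points are members at or below the array median in all tumours. Mmp12 has the lowest value at −3.12, and the intervals of most members include 0.

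Mmp12, the macrophage elastase, showed the largest difference. Its values in EMT tumours had a lowest of 5.29, a median of 9.22 and a highest of 11.42, against 9.58, 11.74 and 13.54 in Squamous tumours. EMT 2, EMT 4, EMT 5 and EMT 6, at 7.50, 5.29, 8.95 and 9.49, lay below every Squamous tumour, and EMT 1 and EMT 3 lay within the Squamous range. The log2 fold change was −3.12, with an SE of 0.95 (adjusted p = 0.211), an 8.68-fold lower level. The mean difference was −2.82 among numbered arrays and −4.32 among TM arrays, which hold 1 Squamous tumour. In EMT 4 the Mmp12 value was below the lower quartile of its own array. Lower quartiles of the arrays lay between 5.23 and 5.40.

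Macrophage markers were high in some EMT tumours in which Mmp12 was low. The mean of the 10 macrophage markers, all measured, among them Csf1r, Cd68 and C1qa, was 9.58 to 12.43 in EMT and 8.84 to 11.10 in Squamous tumours. EMT 5 and EMT 6 had macrophage means of 12.43 and 12.05, above every Squamous tumour, with Mmp12 below every Squamous tumour. EMT 4, with a macrophage mean of 11.10, had the lowest Mmp12 of all 17 tumours. EMT 2, also below every Squamous tumour in Mmp12, had a macrophage mean of 9.60, well within the Squamous range. Among the 9 Squamous tumours Mmp12 correlated with the macrophage mean (Pearson's r = 0.92, exact permutation p = 0.000284, Spearman's rho = 0.83, p = 0.00827, adjusted p = 0.00189 and 0.0689 over 20 relations). Without Squamous 1 and Squamous 6, the tumours farthest from the median macrophage mean, r was 0.84 (exact p = 0.00794, adjusted p = 0.115), and the adjusted p no longer passed the threshold.

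Mmp7, matrilysin, is made by glandular epithelium in several tissues. It had a lowest of 5.78, a median of 7.12 and a highest of 8.10 in EMT tumours, against 6.18, 8.07 and 9.27 in Squamous tumours. EMT 5 and EMT 6, at 5.78 and 5.81, lay below the lowest Squamous tumour, which was Squamous 9, the only Squamous tumour with a TM title. The log2 fold change was −0.57, with an SE of 0.28 (adjusted p = 0.368), and the mean difference was −0.39 among TM arrays. The highest Mmp7 of all tumours was 10.12 in the Papillary tumour.

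**Figure D3:**
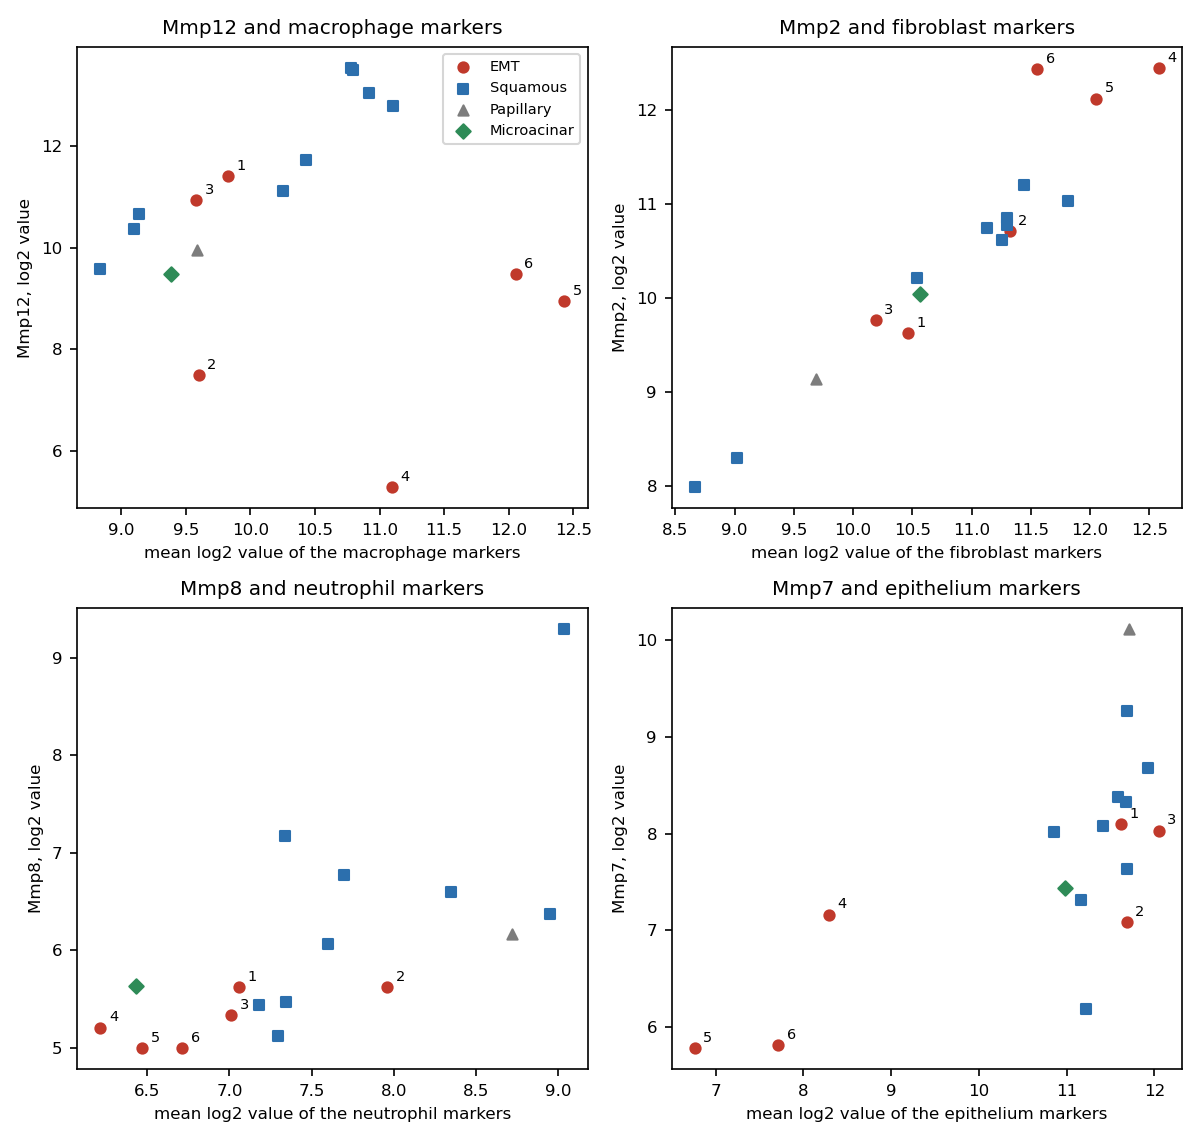
Values of Mmp12, Mmp2, Mmp8 and Mmp7 (y, log2) against the mean log2 value of a marker list (x) in all 17 tumours; numbers mark EMT tumours. EMT 4, EMT 5 and EMT 6 have Mmp12 below every Squamous tumour at macrophage means of 11.10, 12.43 and 12.05, whereas Mmp2 is highest in the same tumours. EMT 2 also has Mmp12 below every Squamous tumour, at a macrophage mean of 9.60.

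The collagenases cut fibrillar collagen. Mmp13 varied over a wide range within both groups, with a lowest of 9.15, a median of 10.14 and a highest of 12.36 in EMT tumours, against 8.53, 11.57 and 12.92 in Squamous tumours. Within Squamous tumours the low values were those of Squamous 1, Squamous 2, Squamous 4 and Squamous 6 (8.89, 8.53, 9.46 and 9.79) and the other 5 lay at 11.57 or above. The log2 fold change was −0.54, with an SE of 0.77 (adjusted p = 0.779). When a tumour was left out it ranged from −1.10 without EMT 2 to −0.22 without Squamous 9. It was −1.30 with array weights, a fit that weights each tumour by how well it follows the model.

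Mmp8, the neutrophil collagenase, had a lowest of 5.00, a median of 5.27 and a highest of 5.62 in EMT tumours, against 5.12, 6.37 and 9.29 in Squamous tumours. The EMT values were all within the lower part of the Squamous range or below it, and Squamous 9 stood apart at 9.29, with the next highest at 7.18. Mmp8 was above the array median in only 1 tumour and below the lower quartile of the array in 5. EMT 5 and EMT 6, both on TM arrays, had the same value of 5.00. This low level limits what can be read from the difference. EMT minus Squamous, Mmp8 differed by −1.40 (SE 0.49, adjusted p = 0.247), which became −0.68 when Squamous 9 was left out. Without that tumour every TM array is an EMT array, so the value comes from numbered arrays alone. The mean of 8 measured neutrophil markers of 9 listed was 6.22 to 7.96 in EMT and 7.18 to 9.04 in Squamous tumours, with the highest value in Squamous 9. Squamous 8 and the Papillary tumour had similar neutrophil means, 8.95 and 8.72, with Mmp8 at 6.37 and 6.17. The part of the neutrophil markers in the Mmp8 difference was not tested. Mmp1a and Mmp1b, related genes whose probe sets may not fully tell them apart, were below the lower quartile of the array in every tumour.

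The gelatinases Mmp2 and Mmp9 cut denatured collagen and basement membrane collagen. Mmp2, mainly a fibroblast product, had 9.62, 10.71, 9.77, 12.45, 12.12 and 12.44 in EMT tumours 1 to 6. Its Squamous values had a lowest of 7.99, a median of 10.74 and a highest of 11.20. EMT 4, EMT 5 and EMT 6 lay above every Squamous tumour, and the other EMT tumours lay within their range. For Mmp2 the fitted difference was 0.69 (SE 0.59, adjusted p = 0.615), with 0.25 without EMT 4, 0.46 without Squamous 1 and −0.01 with array weights, a fit that weights each tumour by how well it follows the model. A separate probe set of Mmp2 gave 0.63.

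Mmp9, made by neutrophils, macrophages and tumour cells, was 12.69 in EMT 4 and 10.92 in EMT 6. Over the EMT tumours it had a lowest of 7.68, a median of 9.67 and a highest of 12.69, against 6.99, 8.37 and 11.10 in Squamous tumours. Only EMT 4 exceeded the highest Squamous value. For Mmp9 the fitted log2 fold change of 1.24 (SE 0.87, adjusted p = 0.528) became 0.50 when EMT 4 was left out and 0.36 with array weights.

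The stromelysins degrade proteoglycans and can activate other Mmp precursors. Mmp3, stromelysin 1, had a lowest of 8.51, a median of 9.89 and a highest of 12.24 in EMT tumours, against 7.10, 10.61 and 11.85 in Squamous tumours. Squamous 1 and Squamous 2 were low at 7.10 and 7.25, and the other 7 Squamous tumours lay between 10.18 and 11.85. Groups differed by −0.16 (log2 fold change, SE 0.81, adjusted p = 0.944), and by −0.79 with array weights. Mmp10, stromelysin 2, had a lowest of 6.25, a median of 7.50 and a highest of 9.36 in EMT tumours, against 6.91, 7.87 and 10.37 in Squamous tumours (log2 fold change −0.82, SE 0.66, adjusted p = 0.587, with −1.32 without EMT 2, −0.52 without EMT 4 and −0.53 without Squamous 9). Values of 9.99 or more occurred in Squamous 3, Squamous 5 and Squamous 9.

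Mmp11, stromelysin 3, is known as a stromal fibroblast product in carcinomas. It was 6.99, 8.61 and 7.50 in EMT 4, EMT 5 and EMT 6, against a lowest of 5.55, a median of 6.18 and a highest of 6.95 in Squamous tumours, and 5.66 to 6.08 in the other 3 EMT tumours. For Mmp11 the fitted difference was 0.17 (SE 0.28, adjusted p = 0.811), with −0.06 among numbered arrays and −0.20 with array weights.

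Mmp14, the membrane-type metalloproteinase that activates pro-Mmp2 together with Timp2, was high in the same EMT tumours as Mmp2. It measured 10.88, 11.12, 10.28, 12.30, 12.17 and 12.44 in EMT tumours 1 to 6, against a lowest of 8.92, a median of 11.04 and a highest of 11.76 in Squamous tumours. EMT 4, EMT 5 and EMT 6 lay above the Squamous range. For Mmp14 the fitted difference was 0.53 (SE 0.42, adjusted p = 0.584), with 0.23 without EMT 4, 0.34 without Squamous 1 and 0.06 with array weights, and the second probe set of Mmp14 gave 0.63. Mmp16, another membrane type, was 6.80 in EMT 4 and 7.19 in EMT 6, against a highest Squamous value of 5.60, but it was below the array median in every tumour (log2 fold change 0.64, SE 0.37, adjusted p = 0.443, with 0.32 without Squamous 9). Its second probe set gave 0.06.

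Of the remaining matrix metalloproteinases, Mmp19 and Mmp23 varied with the tumour. Mmp23 was 9.79 in EMT 4 and 10.53 in EMT 5, against 6.35 to 8.53 in Squamous tumours (log2 fold change 0.50, SE 0.56, adjusted p = 0.709, with 0.07 without EMT 4 and −0.18 with array weights). Mmp19 spread from 5.19 to 7.81 in EMT tumours, against 4.29 to 7.76 in Squamous tumours (log2 fold change −0.05, SE 0.55, adjusted p = 0.978). Mmp20, the tooth enamel enzyme, was below the lower quartile of the array in every tumour.

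The Timp inhibitors differed in how they spread. Timp1 measured 10.57, 11.91, 9.87, 12.59, 14.16 and 12.67 in EMT tumours 1 to 6, against a lowest of 7.83, a median of 10.62 and a highest of 11.69 in Squamous tumours. All but EMT 1 and EMT 3, which lay within the range, were above every Squamous tumour. For Timp1 the fitted difference was 1.43 (SE 0.67, adjusted p = 0.352), a 2.70-fold higher level, and 0.59 with array weights, with mean differences of 1.07 among numbered and 2.89 among TM arrays.

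Timp2, which inhibits Mmp2 and takes part in its activation, split the EMT tumours in both directions. It reached 12.97 in EMT 4, 12.93 in EMT 5 and 12.65 in EMT 6, and no Squamous tumour exceeded 11.93. In EMT 1, EMT 2 and EMT 3 it was 10.40, 10.34 and 10.79, below 8 of the 9 Squamous tumours, which lay between 11.14 and 11.93, and above Squamous 1 at 10.07. The log2 fold change was −0.004, with an SE of 0.41 (adjusted p = 0.997), with an interval of −0.89 to 0.88, and the EMT SD was 1.30 against 0.57 in Squamous tumours. Of its 5 other probe sets 4 gave changes of 0.07 to 0.39 and 1 gave −0.09.

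Timp3, which binds to the matrix and also inhibits Adam17, was lowest at 7.88 in EMT 2 and highest at 11.82 in EMT 6, with a median of 10.25, against 7.92, 10.34 and 10.79 (lowest, median and highest) in Squamous tumours. Groups differed by −0.25 (log2 fold change, SE 0.55, adjusted p = 0.868). Timp4 was below the lower quartile of the array in every tumour.

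**Figure D4:**
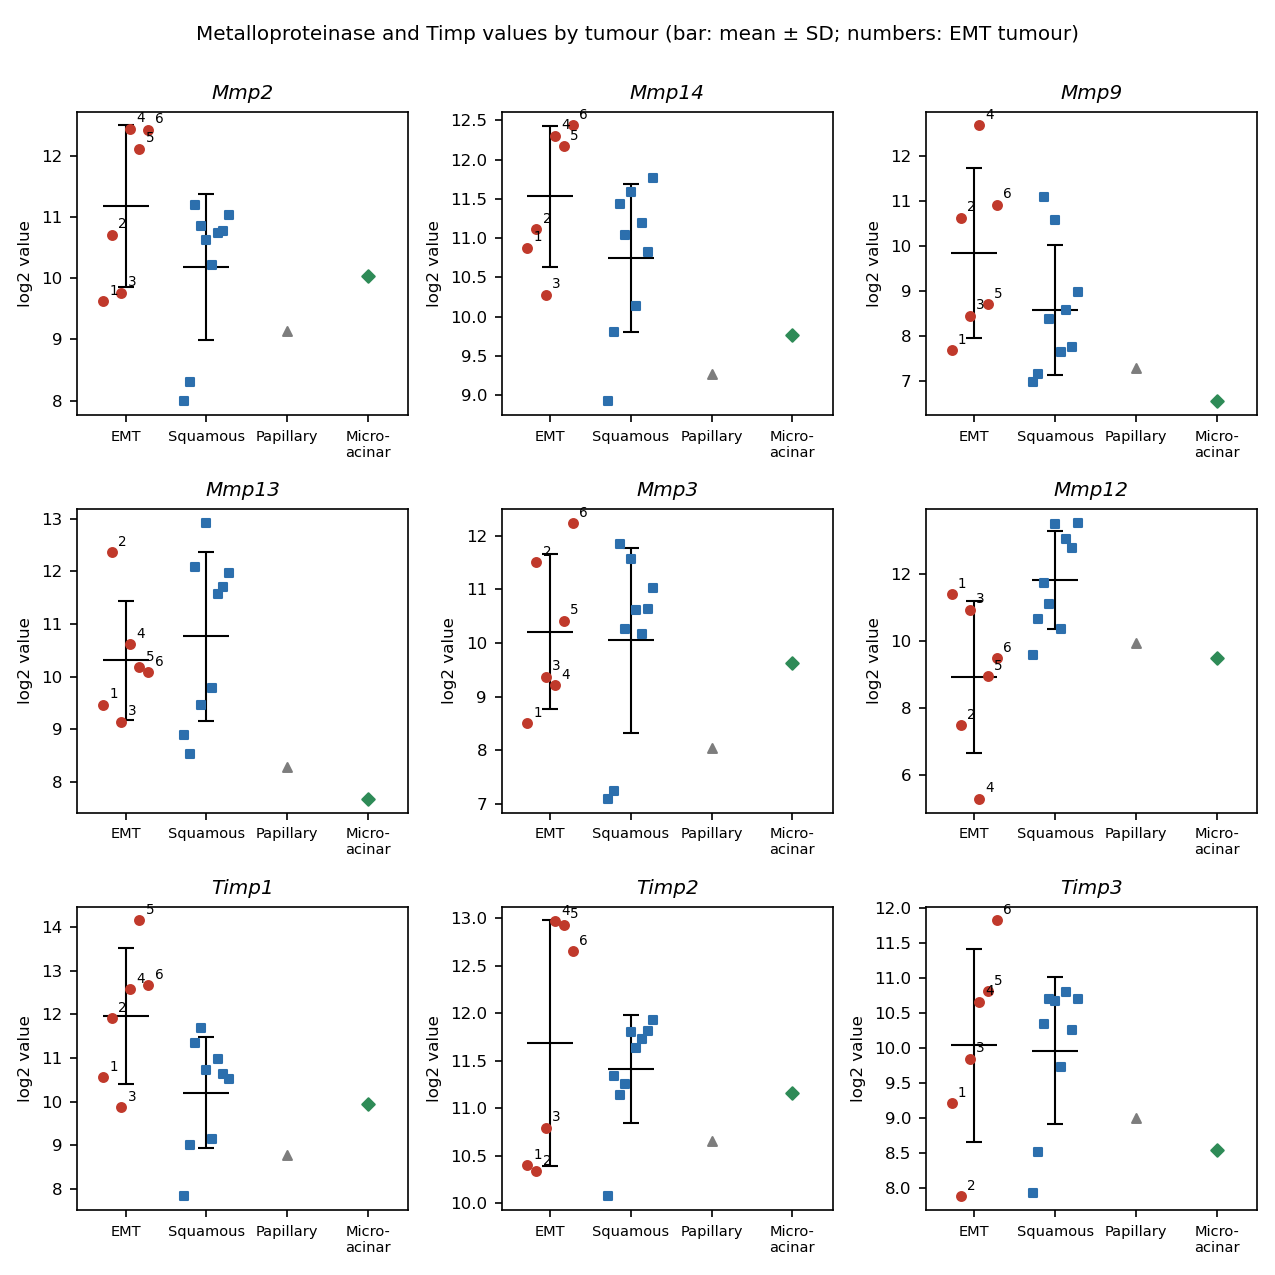
Values (y, log2) of 6 metalloproteinases and 3 Timp genes in EMT, Squamous, Papillary and Microacinar tumours (x); each point is a tumour, bars are mean ± SD, and numbers mark EMT tumours. EMT 4, EMT 5 and EMT 6 lie above all Squamous tumours for Mmp2, Mmp14, Timp1 and Timp2. So do 19.6%, 27.1% and 26.8% of all genes in these tumours, in that order.

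The Adam proteins include sheddases, which release growth factors and receptors from the cell surface, and members of the sperm and testis. Of the 25 Adam members 7 were above the array median in at least 1 tumour, namely Adam8, Adam9, Adam10, Adam12, Adam15, Adam17 and Adam19. Adam10, the sheddase of Notch and Cdh1, varied little, with a lowest of 11.04, a median of 11.14 and a highest of 11.32 in EMT tumours, against 10.68, 11.01 and 11.24 in Squamous tumours (log2 fold change 0.19, SE 0.08, adjusted p = 0.288, with 0.13 without Squamous 9). Its group ranges overlapped, with EMT 2 and EMT 3 exceeding all Squamous tumours. Adam17, the sheddase of tumour necrosis factor and of ErbB ligands, had 9.18 to 10.31 in EMT and 9.15 to 9.99 in Squamous tumours (log2 fold change 0.02, SE 0.10, adjusted p = 0.931, interval −0.19 to 0.23). The highest values of Adam17 were on the 3 TM arrays. Other probe sets of Adam17 gave 0.30 and 0.18.

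Adam12, a marker of activated stromal cells with a short secreted form, measured 10.21 (EMT 2), 10.71 (EMT 4) and 9.49 (EMT 6), against a lowest of 6.68, a median of 8.12 and a highest of 8.90 in Squamous tumours. These 3 EMT tumours lay above the Squamous range and the others, at 7.68, 7.86 and 8.62, within it. For Adam12 the fitted difference was 1.07 (SE 0.53, adjusted p = 0.375), the largest of the Adam genes, with 0.62 without EMT 4 and 0.46 with array weights. Its second probe set gave 1.09.

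Adam19, which sheds neuregulin, was 9.24, 9.86 and 10.65 in EMT 4, EMT 5 and EMT 6, against 6.89 to 9.17 in Squamous tumours (log2 fold change 0.44, SE 0.38, adjusted p = 0.616, with 0.24 without EMT 4 and 0.03 with array weights). Adam9 was 10.99, 11.34 and 11.42 in the same tumours, against 9.83 to 10.69 in Squamous tumours (log2 fold change 0.19, SE 0.18, adjusted p = 0.646, with 0.04 without EMT 4 and 0.01 with array weights). Adam15 was 10.87 in EMT 5 and 10.62 in EMT 6, and Squamous 9, on the other TM array, was the highest Squamous tumour at 10.02. Groups differed by 0.16 (log2 fold change, SE 0.12, adjusted p = 0.574), and 0.02 without Squamous 9. Adam8, a protease of leukocytes, spread from 8.87 to 11.41 in EMT and from 8.08 to 11.41 in Squamous tumours (log2 fold change 0.28, SE 0.51, adjusted p = 0.834, with −0.10 without EMT 2 and −0.26 with array weights).

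The aggrecanase-type Adamts enzymes cut large proteoglycans such as versican and aggrecan. Adamts8 lay in a narrow Squamous range of 6.26 to 6.80 and was 7.03 in EMT 3, 8.42 in EMT 4, 8.97 in EMT 6 and 5.93 in EMT 5 (log2 fold change 0.70, SE 0.41, adjusted p = 0.442, with 0.38 without EMT 4 and 0.44 without EMT 6). Adamts5 had a lowest of 6.38, a median of 7.47 and a highest of 9.89 in EMT tumours, against 6.08, 8.33 and 8.97 in Squamous tumours (log2 fold change −0.66, SE 0.49, adjusted p = 0.553). The mean difference of Adamts5 was −1.05 among numbered arrays and 0.89 among TM arrays, and its log2 fold change was −1.18 with array weights.

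Adamts4 spread from 7.28 to 8.59 in EMT and from 6.66 to 8.46 in Squamous tumours (log2 fold change 0.49, SE 0.31, adjusted p = 0.477, with 0.14 with array weights). Adamts1, known to act in ovulation and vessel growth, had 8.40 to 9.63 in EMT and 6.53 to 9.62 in Squamous tumours (log2 fold change 0.39, SE 0.32, adjusted p = 0.603, with 0.19 without Squamous 1). Adamts15 was 9.25 in EMT 1 and 5.94 in EMT 6, against 7.22 to 8.59 in Squamous tumours, so that EMT tumours lay on either side of the Squamous range. Adamts7, which cuts cartilage oligomeric matrix protein, was 8.65 in EMT 6 and 6.44 to 7.08 in the other EMT tumours, against 5.74 to 6.97 in Squamous tumours (log2 fold change 0.55, SE 0.27, adjusted p = 0.366, with 0.31 without Squamous 9).

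**Figure D5:**
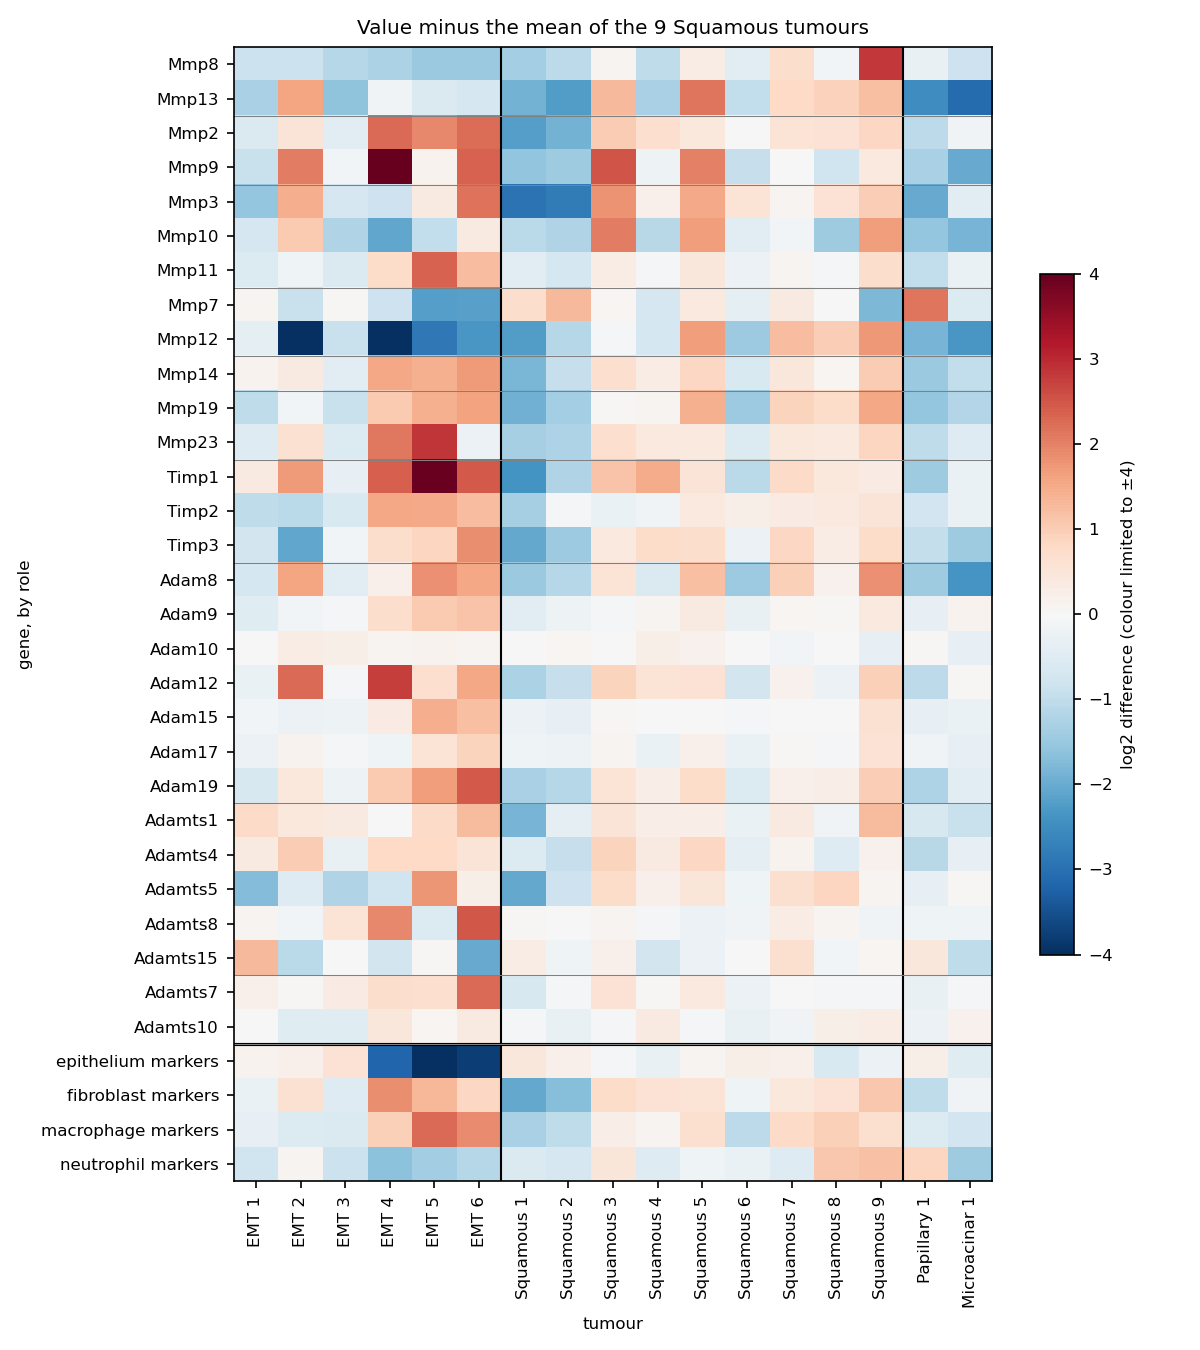
Difference of each value from the mean of the 9 Squamous tumours (colour, log2, limited to ±4) for the 29 members above the array median in at least 1 tumour and 4 marker means (y), in 17 tumours (x). EMT 4, EMT 5 and EMT 6 share high Mmp2, Mmp14, Timp1, Timp2 and Adam19 and low epithelium markers. Of all genes 19.6%, 27.1% and 26.8% lie above every Squamous tumour in these 3 tumours.

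Of the 54 members 29 were above the array median in at least 1 tumour (53.7%, against 70.2% of all genes) and 10 in every tumour (18.5%, against 43.5%). The 10 were Adam9, Adam10, Adam15, Adam17, Mmp2, Mmp13, Mmp14, Timp1, Timp2 and Timp3. The 25 members never above the array median included 18 Adam genes and had log2 fold changes between −0.22 and 0.64. Below the lower quartile in every tumour were 16 of the 54 members (29.6%, against 12.7% of all genes).

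Fibroblast markers moved with several members in the tumours. The mean of 10 fibroblast markers, all of them on the array, was 10.46, 11.32, 10.19, 12.58, 12.05 and 11.56 in EMT tumours 1 to 6, against 8.67 to 11.81 in Squamous tumours. In the 9 Squamous tumours all 20 relations computed between 10 members and the fibroblast or macrophage mean were positive, and 19 had an adjusted p under 0.05 for Pearson's r (exact permutation, two-sided). By Spearman's rho 1 of the 20 did, Mmp2 with the fibroblast mean, and the adjusted p of the others was 0.0689 or higher. The same relations were not computed for all genes, so these counts cannot be read as particular to the members. For Mmp2 and the fibroblast mean r was 0.99 (exact p = 0.000209, adjusted p = 0.00189) and rho was 0.95 (exact p = 0.000353, adjusted p = 0.00705). For Mmp14 r was 0.94 (exact p = 0.000171, adjusted p = 0.00189) and rho 0.80 (exact p = 0.0138, adjusted p = 0.0689).

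Squamous 1 and Squamous 2 had the lowest fibroblast means, 8.67 and 9.02, and stood apart from the other 7, at 10.54 or above. They also had the lowest Mmp2 and Mmp3. Without them r was 0.88 for Mmp2 (exact p = 0.0230) and 0.87 for Mmp14 (exact p = 0.0139), both with an adjusted p of 0.115, 0.35 for Mmp3 (exact p = 0.450) and 0.07 for Timp2 (exact p = 0.842). None of the 10 fibroblast relations without Squamous 1 and Squamous 2, and none of the 10 macrophage relations without Squamous 1 and Squamous 6, had an adjusted p under 0.05 over the 7 tumours left. For Mmp2 and Mmp3 with the macrophage mean r was 0.84 and 0.79 without those 2 tumours, against 0.82 and 0.73 with all 9. The part of fibroblast and macrophage markers in the differences between EMT and Squamous tumours was not tested. In bulk tumour RNA, fewer cells of a type and less RNA per cell cannot be told apart.

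The Papillary and Microacinar tumours, 1 of each, have no replicate check. In the Papillary tumour 3 members lay above the highest Squamous tumour (against 8.26% of all genes) and 8 below the lowest (against 8.26%). In the Microacinar tumour the counts were 3 above (against 11.1% of genes) and 9 below (against 10% of genes). Mmp13 was 8.29 in the Papillary and 7.69 in the Microacinar tumour, below the lowest Squamous value of 8.53. Adam8 and Mmp9 were 7.21 and 6.55 in the Microacinar tumour, below Squamous lows of 8.08 and 6.99. In the Papillary tumour Mmp7 was 10.12, above the highest Squamous value of 9.27, and Mmp11 was 5.27, below the lowest of 5.55.

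Some tumours share a number in their titles, and the labels do not say what it marks. The Microacinar tumour and Squamous 5 form such a pair, and they differed by more than 1 log2 unit in 13 members, with the largest difference, 5.23, in Mmp13. Squamous 7 and Squamous 8 form another and differed by more than 1 log2 unit in 1 member, Mmp10. The median absolute difference over members was 0.37 for the Microacinar pair and 0.13 for the Squamous pair. Over all 36 pairs of Squamous tumours it was 0.11 to 0.81, with a median of 0.25. Only 1 of these pairs was more alike than Squamous 7 and Squamous 8.

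Other genes of pericellular proteolysis were taken from a fixed list of 42, of which 37 were measured. None passed the test over all genes (0% called), and at an unadjusted p under 0.05 there were 3 higher and 6 lower, against 8.08% and 6.27% of all genes. Plat, tissue plasminogen activator, reached 10.65 in EMT 2, 11.03 in EMT 4 and 10.60 in both EMT 5 and EMT 6, whereas no Squamous tumour exceeded 9.41, and EMT 1 and EMT 3 had 9.28 and 8.27 (log2 fold change 1.35, SE 0.39, adjusted p = 0.204, with 0.80 with array weights). Plau, urokinase, was 7.22 in EMT 5 and 6.16 in EMT 6, both on TM arrays, against 4.04 to 5.11 in Squamous tumours (log2 fold change 0.76, SE 0.33, adjusted p = 0.324, 0.29 without Squamous 9 and 0.27 by its second probe set). Plau was never above the array median, and it was below the lower quartile of the array in 14 of the 17 tumours. Its receptor Plaur had 7.99 to 9.90 in EMT and 7.44 to 9.69 in Squamous tumours (log2 fold change 0.45, SE 0.40, adjusted p = 0.627), with 0.22 without EMT 4, 0.71 without EMT 1 and −0.04 with array weights.

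Bsg, basigin, which induces Mmp expression in neighbouring cells, had 11.59 to 12.28 in EMT and 11.20 to 12.01 in Squamous tumours (log2 fold change 0.45, SE 0.16, adjusted p = 0.246). In all, 4 of the 6 EMT tumours lay above the highest Squamous tumour. Reck, a membrane inhibitor of Mmp proteins, had 5.82 to 8.85 in EMT and 5.83 to 8.21 in Squamous tumours (log2 fold change −0.22, SE 0.52, adjusted p = 0.875). Furin, the convertase that activates membrane-type Mmp precursors, had 8.48 to 9.96 in EMT and 8.78 to 9.58 in Squamous tumours (log2 fold change −0.01, SE 0.12, adjusted p = 0.979).

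Several epithelial serine proteases and their inhibitors lay lower in the EMT tumours with low epithelial markers. Spint1, an inhibitor of the protease matriptase, was 5.05, 5.55 and 5.25 in EMT 4, EMT 5 and EMT 6 and 8.72 to 9.52 in the other EMT tumours, against 8.53 to 9.63 in Squamous tumours (log2 fold change −1.59, SE 0.60, adjusted p = 0.269, with −0.90 without EMT 4 and −0.95 with array weights). Tmprss2, a membrane serine protease, was 4.88, 3.85 and 4.80 in the same tumours and 7.23 in EMT 2, against 7.40 to 9.90 in Squamous tumours (log2 fold change −1.58, SE 0.54, adjusted p = 0.242, and −0.40 by its second probe set). Serpinb5, maspin, was 5.84, 6.29 and 5.33 there and 12.04 in EMT 2, against 8.42 to 12.16 in Squamous tumours (log2 fold change −1.64, SE 0.95, adjusted p = 0.442, and −0.47 without Squamous 9). The part of the low epithelial marker means in these values was not tested. The others of the list that were lower at an unadjusted p under 0.05, named after their values were seen, were St14, Spint2, Anpep and Dpp4 at −1.55, −1.51, −1.23 and −0.79. Anpep was 8.02, 8.88 and 7.48 in EMT 4, EMT 5 and EMT 6, against 9.04 to 10.15 in Squamous tumours. EMT 1 and EMT 3, at 9.47 and 9.75, lay within the Squamous range. EMT 2 departed from the epithelial markers, with an epithelial mean of 11.69 and the lowest Anpep, 6.51.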

How the data were processed

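Total RNA of 17 mammary tumours was converted to biotinylated cRNA and hybridised to 1 Affymetrix array per tumour, per the labels' protocols. Values for 22690 probe sets were deposited on the log2 scale, as read from the values themselves. How the authors summarised and normalised them is not given in the sources used here. Array medians lay between 7.22 and 7.40, and the values were used as deposited.

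Of the probe sets 64 were controls, 20380 had 1 gene symbol in the supplied platform annotation (20351 matched by gene identifier), 691 had several and 1555 were not listed. The highest-mean probe set stood for each gene. Among members 19 had several probe sets, with 29 further ones, 7 of opposite sign. For EMT against Squamous tumours, limma 3.58.1 (R 4.3.3) was fitted with title format as an additive term and Benjamini-Hochberg adjustment over 12393 genes at a threshold of 0.05. Papillary and Microacinar tumours stayed out of the fit. Nothing says that tumours came from separate animals, so p-values measure the spread between these samples, part of which may be technical. Correlations used exact permutation of pairings. On simulated data of this comparison over 12393 genes the model called 37 of 50 genes whose simulated log2 change was 1, 45 of 50 at 2, 49 of 50 at 3 and 50 of 50 at 4, with 9 false calls. The simulated noise was independent between genes and had the same SD in both groups. In the real data the SD was higher among EMT tumours for 77.2% of genes. The simulated counts therefore do not give the power of the test on these tumours.

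The members and lists were chosen with earlier results of these data known. Genes named were fixed by a rule: up to 10 members past the threshold, members without overlap, the largest change and the largest SD of each role group, a fixed set of well-known members where measured, the 3 members farthest outside the Squamous range in the Papillary and in the Microacinar tumour, and of the other proteolysis genes those past the threshold, those without overlap, the 3 largest changes and a fixed set. The rule planned to split the Adam genes by protease motif, but no protein sequences were used here, so they form 1 group. The alternatives tried concern the title format term, normalization, probe sets, level filter, variance model, array weights, groups, averaged tumours and leaving out each tumour. Promoter sequences are those of RefSeq, GRCm38.p6. Python 3.11.15, pandas 2.3.3, numpy 2.4.6, scipy 1.17.1 and matplotlib 3.10.9 were used.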

Additional observations from a re-analysis of the deposited data

Results flagged for a closer look

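In 76 group ranges tested, 7 single tumours stood farther from the rest of their group than Dixon's 95% critical value allows, and chance flags about 1 group in 20. Of these, 3 were in Squamous 9, the Squamous tumour with a TM title: Mmp8 at 9.29, against a next highest of 7.18, Adam15 at 10.02, against 9.45, and Furin at 9.58, against 9.09. Adamts7 in EMT 6 was 8.65, against a next highest EMT value of 7.08. Timp2 in Squamous 1 was 10.07, against a next lowest of 11.14. Timp4 in EMT 1 was 4.75, against a next lowest of 5.17, at a level below the lower quartile of the arrays. Tmprss2 in Squamous 2 was 9.90, against a next highest of 8.65.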

How the results depend on the processing

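No member, and no other proteolysis gene, passed the threshold under any of 25 alternatives, and over all genes 14 were called without EMT 1 and 0 under the others. At an unadjusted p under 0.05 the number of members was 1 to 8. The median log2 fold change of the members was −0.001 (array weights) to 0.19 (genes above the median level). The correlations with an adjusted p under 0.05 numbered 0 without the 2 tumours farthest from the median marker mean, against 19. Mmp12 stayed negative in all alternatives, from −3.84 to −2.28 when a tumour was left out, with adjusted p 0.0849 to 0.517. The log2 fold changes of 13 of the 38 named genes changed sign under 1 or more alternatives, and the cause was not tested. Without the title format term Mmp3 was 0.16, Mmp19 0.34, Timp2 0.27, Timp3 0.082 and Furin 0.17. With array weights Mmp23 was −0.18, Adam8 −0.26, Mmp2 −0.0092, Mmp11 −0.20, Timp4 −0.0051, Adam17 −0.021 and Plaur −0.040. With tumours of 1 title number averaged Mmp19 was 0.064 and Timp2 0.052. On numbered arrays alone Mmp11 was −0.060 and Adam17 −0.0051. With array medians subtracted Timp2 was 0.0059, and with quantile normalization Adam17 was −0.0065. With probe sets averaged Timp2 was 0.13 and Timp4 −0.088. Other single probe sets gave 0.022 for Mmp19, 0.39, 0.19, 0.071 and 0.21 for Timp2, 0.056 for Timp3 and −0.21 for Timp4. Leaving out each tumour gave −0.62 to 0.15 for Mmp3, −0.38 to 0.15 for Mmp19, −0.098 to 0.48 for Adam8, −0.060 to 0.33 for Mmp11, −0.44 to 0.23 for Timp2, −0.53 to 0.18 for Timp3, −0.014 to 0.12 for Timp4, −0.024 to 0.070 for Adam17, −0.66 to 0.11 for Reck and −0.13 to 0.10 for Furin. No paired analysis was possible because replicate numbers only name tumours in accession order. The signal of members below the lower quartile of the arrays limits what can be read from them.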
